A study of Homo sapiens with 6 samples.

Results

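The genes described here are 10 members of the negative feedback and immediate output of the RAS-ERK pathway, found by their symbols in the deposited tables. They are the MAPK phosphatases DUSP1, DUSP4, DUSP5, DUSP6 and DUSP10, the Sprouty-type inhibitors SPRY2, SPRY4 and SPRED1, and the transcription factors EGR1 and ETV5. All 10 were found, each under 1 identifier, among 29889 genes with counts and 29687 with FPKM values (fragments scaled by transcript length and by the mapped fragments of the library), and all 10 were among the 15847 genes that passed the filter on low counts. RNA was sequenced from A549 cells, a human lung adenocarcinoma line, 48 h after transfection with a plasmid for CELF6 (CELF6-OE) or without an insert (Control), in 3 biological replicates of each. CELF6 is an RNA-binding protein that acts on splicing and mRNA stability, and the comparison asks which transcripts differ when it is over-expressed. Both groups were the same cell line under transient Lipofectamine transfection, and the cells were harvested in bulk, so the share of cells that took up plasmid is not resolved.

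In this pathway growth factor receptors activate RAS, RAF, MEK and finally the kinase ERK, which enters the nucleus and switches on transcription. Among the genes that ERK switches on are its own inhibitors. Dual-specificity phosphatases (DUSPs) remove the activating phosphates from MAP kinases, and Sprouty and SPRED proteins act upstream, at the level of RAS and RAF. For this reason the RNA levels of DUSP6, SPRY2, SPRY4, EGR1 and ETV5 are widely read as a transcriptional output of ERK. Only RNA was measured here, not the phosphorylation of ERK.

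The libraries of CELF6-OE held 33748328 to 35413404 counts on genes and those of Control 36422617 to 37920700, and mitochondrial genes took 8.69% to 10.1% of a library. CELF6 had an FPKM of 270.1, 294.9 and 172 across CELF6-OE replicates, against 0 counts in each library of Control. Of the epithelial markers KRT8, KRT18, KRT19, EPCAM and CDH1, all 5 were expressed. Their summed FPKM was 3340 to 4080 under CELF6-OE and 4650 to 5080 for Control, most of it from KRT8 and KRT18. All but EPCAM, 4 of them, were lower in CELF6-OE at an adjusted p under 0.05. CDH1 changed most of the 5, with a log2 fold change of -1.62 (edgeR adjusted p 0.000105). It had 539, 516 and 870 counts across CELF6-OE replicates, against 2003, 2201 and 2059 across those of Control. The log2 fold changes of KRT8, KRT18 and KRT19 were -0.47, -0.36 and -0.22. Of 10 markers of leukocytes, fibroblasts and endothelium, PTPRC, DCN, CDH5 and VWF had between 0 and 3 counts in every library and CD3E was not analysed here. PECAM1 was called lower, at 3, 3 and 5 counts in CELF6-OE replicates and 11, 17 and 15 in those of Control (log2 fold change -1.86, edgeR adjusted p 0.012). PDGFRB had 1, 1 and 3 counts against 5 to 8 for Control and was not tested. COL1A1 had 56 to 77 counts against 87 to 107 (adjusted p 0.10), and CD14, at 225 to 310 counts, overlapped between the groups. That list summed to an FPKM of 3.53 to 4.81 under CELF6-OE and of 3.45 to 4.10 for Control, most of it from CD14. The part of these marker differences in the results that follow was not tested.

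Per length, the 10 genes spanned a wide range of levels in Control, with a mean FPKM 73.7 times higher for DUSP1 than for EGR1. The order in Control was DUSP1, DUSP5, DUSP4, ETV5, DUSP6, SPRY2, SPRY4, DUSP10, SPRED1 and EGR1. Down to SPRY4 the ranges of neighbours in this order did not overlap, whereas SPRY4 overlapped with DUSP10, DUSP10 with SPRED1 and SPRED1 with EGR1. In CELF6-OE the order was DUSP1, DUSP4, DUSP5, ETV5, SPRY2, DUSP6, SPRY4, SPRED1, DUSP10 and EGR1, where SPRY2 overlapped with DUSP6 and SPRY4 with SPRED1. DUSP5 and DUSP4 thus changed places between the groups, with non-overlapping levels in each.

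**Figure D1:**
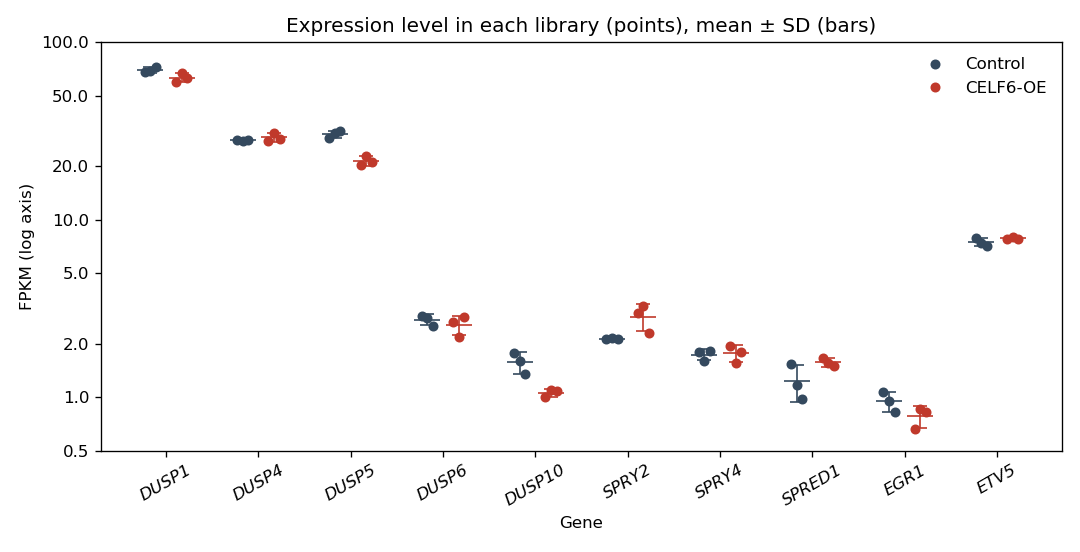
FPKM on a log axis for each of the 10 genes in the 3 Control (dark) and 3 CELF6-OE (red) libraries, with the mean and SD as bars. DUSP5 lay at 28.9 to 31.5 in Control and at 20.3 to 22.9 in CELF6-OE, while DUSP4 lay at 27.9 to 28.2 and 27.9 to 31.

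Of the 10 genes, 2 were lower in CELF6-OE at a Benjamini-Hochberg adjusted p under 0.05 in edgeR's quasi-likelihood test, DUSP5 and DUSP10, and 0 were higher. By DESeq2 the counts were also 2 lower and 0 higher, and an unadjusted p under 0.05 in edgeR was found for 5 of the 10, against 32.7% of all genes. Over all genes tested, 18% were called, 11.5% lower and 6.47% higher, so 2 of 10 called (20%) is near the background. At a p under 0.01 with at least a 1.5-fold change, 1 of the 10 passed, DUSP10, which was lower, and 0 were higher, against 7.27% of all genes (5.91% lower and 1.36% higher). With an adjusted p under 0.05 in place of that p, DUSP10 was again the 1 gene that passed, against 7.17% of all genes. The CPM (counts scaled to a common library size) values of the groups lay apart for 5 of the 10, with DUSP1, DUSP5, DUSP10 and EGR1 lower and SPRY2 higher, against 37.9% of all genes (20% lower and 17.9% higher). The median log2 fold change was -0.068 for the 10 genes and 0.012 for all genes tested. The fitted change was above 0 for 4 of the 10 genes and below 0 for 6.

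**Figure D2:**
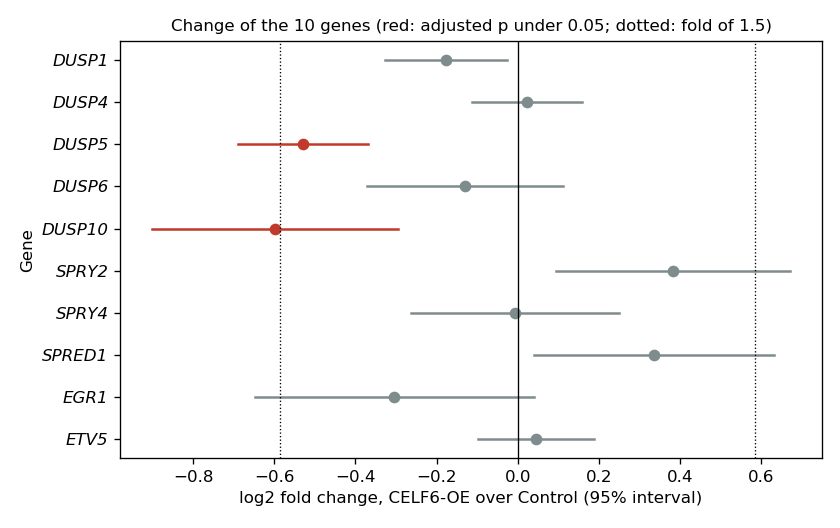
Log2 fold change of CELF6-OE over Control for each gene (point) with its 95% interval (line), red where the adjusted p was under 0.05 and dotted lines at a fold change of 1.5. DUSP5 and DUSP10 lie left of 0 at -0.53 and -0.60, and the intervals of DUSP4, DUSP6, SPRY4, EGR1 and ETV5 include 0.

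DUSP5 is a nuclear phosphatase that acts on ERK and holds it in the nucleus. The gene (ENSG00000138166) lies on the plus strand of chromosome 10 of GRCh38 from 110497907 to 110511533. It had 1884, 2175 and 1921 counts across CELF6-OE replicates, against 2796, 3092 and 3181 across those of Control. Every CELF6-OE library was below every Control library. Its FPKM, 30.4 ± 1.37 for Control, fell to 21.5 ± 1.34 under CELF6-OE (SD, n = 3 each), and the log2 change was -0.53 (standard error 0.073, 95% interval -0.69 to -0.37), or 1.44-fold lower. The adjusted p in edgeR was 0.00063, and DUSP5 was called under all 15 alternatives, where the change lay between -0.59 and -0.48 and the adjusted p was at most 0.0078. It was short of a fold change of 1.5 except without Control replicate 1, where the log2 fold change was -0.59. In bulk RNA, fewer cells with the transcript and less transcript per cell cannot be told apart.

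DUSP10 is a phosphatase that prefers the stress kinases p38 and JNK over ERK. It lies on the minus strand of chromosome 1 from 221701424 to 221742089 (ENSG00000143507). Its counts were low, at 97, 109 and 102 across CELF6-OE replicates, against 180, 169 and 142 across those of Control. The groups did not overlap, and Control replicate 3 was the closest to CELF6-OE. The FPKM was 1.06 ± 0.053 in CELF6-OE and 1.58 ± 0.22 in Control (SD, n = 3 each). The log2 fold change was -0.60 (standard error 0.14, 95% interval -0.90 to -0.30), and edgeR gave an adjusted p of 0.013. The call was lost when CELF6-OE replicate 1 or Control replicate 2 was left out, with edgeR adjusted p values of 0.059 and 0.064. The log2 fold changes there were -0.56 and -0.58, close to that of all libraries. Calls over all genes also fell in these 2 fits, from 2845 to 1505 and 1319. Without Control replicate 1 the log2 fold change was -0.54, and DUSP10 was still called (edgeR adjusted p 0.018).

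DUSP1, the product of an immediate early gene, acts on p38, JNK and ERK. It had the highest level of the 10 genes, with an FPKM of 59.7, 67.3 and 62.8 in CELF6-OE and 68.0, 68.8 and 73.1 in Control. The groups were close but did not overlap. Its log2 fold change was -0.18 (standard error 0.068, 95% interval -0.33 to -0.027) and edgeR gave an adjusted p of 0.098. Without Control replicate 1 it was called, with a log2 fold change of -0.23 and an adjusted p of 0.022. The gene lies on the minus strand of chromosome 5 from 172768096 to 172771195 (ENSG00000120129). Its promoter in RefSeq (GRCh38.p14) is shown around 2 elements that are textbook features of this gene, a cyclic AMP response element (TGACGTCA) and a TATA element (TATAAA), which are in capitals. They begin 125 and 30 bases before the start, at chr5:172771305-172771328 and chr5:172771211-172771234 of the minus strand.
DUSP1 cyclic AMP response element: agggcgggTGACGTCAccgccccg
DUSP1 TATA element: gaggccgcaTATAAAcgcgctccc

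DUSP4, like DUSP5 a nuclear phosphatase, had the most counts of the 10 genes, though not the highest level per length. It had 7360, 8328 and 7301 counts across CELF6-OE replicates, against 7723, 7979 and 8087 across those of Control. The groups overlapped. Its FPKM was 29.1 ± 1.61 in CELF6-OE and 28.1 ± 0.18 in Control (SD, n = 3 each), with a log2 fold change of 0.023 (standard error 0.061), for which edgeR gave an adjusted p of 0.83. The 95% interval, -0.11 to 0.16, leaves out changes beyond 0.925-fold and 1.12-fold. The gene lies on the minus strand of chromosome 8 from 29333064 to 29350684 (ENSG00000120875).

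DUSP6 is the cytoplasmic phosphatase that is selective for ERK, and its RNA is among the most used readouts of ERK activity. It had 438, 371 and 452 counts across CELF6-OE replicates, against 497, 504 and 454 across those of Control. CELF6-OE replicate 2 was the lowest of the 6 libraries, and after scaling CELF6-OE replicates 1 and 3 lay within the range of Control. The FPKM was 2.56 ± 0.32 in CELF6-OE and 2.74 ± 0.19 in Control (SD, n = 3 each), and the log2 change was -0.13 (standard error 0.11, 95% interval -0.37 to 0.11). The adjusted p in edgeR was 0.44, and over the alternatives it lay between 0.30 and 0.89. The change was -0.029 without CELF6-OE replicate 2 and -0.21 without CELF6-OE replicate 3. A decrease to 0.774-fold or an increase to 1.08-fold lay within the interval. The gene (ENSG00000139318) is on the minus strand of chromosome 12 from 89347235 to 89352501. Over the 6 libraries, the log2 CPM of DUSP6 was most like that of ARSB, GTF2H5 and CNTNAP3B among 7610 genes with a mean of at least 500 counts, with Pearson's r of 0.981, 0.974 and 0.972. These are given as a description, since the highest of 7610 values over only 6 libraries can be this high by selection alone.

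The ratio of phosphatase counts within a library does not depend on how libraries are scaled. DUSP4 was taken as the denominator after its values were seen, so the ratios are given without a test. DUSP5 amounted to 25.6%, 26.1% and 26.3% of the DUSP4 counts in CELF6-OE replicates 1 to 3 and to 36.2%, 38.8% and 39.3% in Control. DUSP1 amounted to 59.4%, 60.4% and 61.3% in CELF6-OE and to 67.4%, 68.7% and 72.0% in Control. DUSP10 amounted to 1.32%, 1.31% and 1.40% in CELF6-OE and to 2.33%, 2.12% and 1.76% in Control. In each of these 3 ratios the groups did not overlap, and CELF6-OE was the lower group. These 3 were the phosphatases whose CPM values already lay apart, so the ratios are no separate support. DUSP6, whose CPM values overlapped between the groups, was not set against DUSP4.

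**Figure D3:**
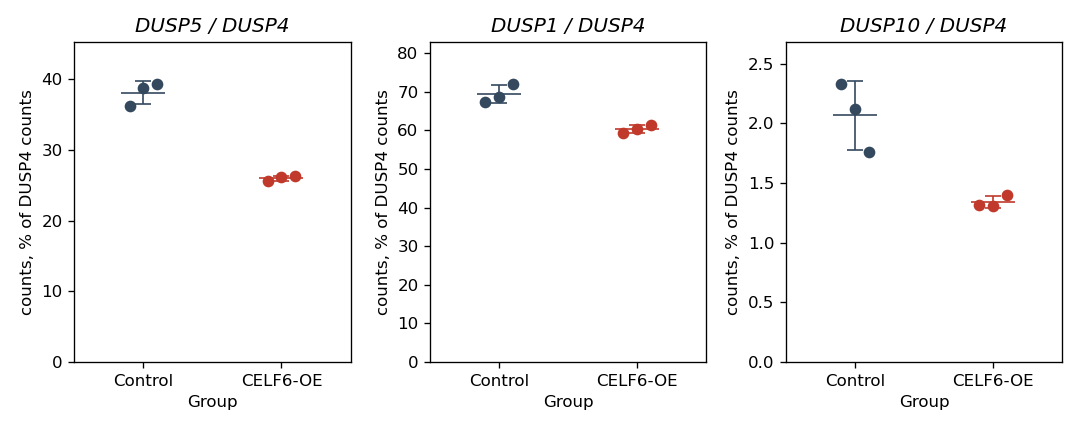
Counts of DUSP5, DUSP1 and DUSP10 as a percent of the DUSP4 counts of the same library, for 3 Control and 3 CELF6-OE libraries, with mean and SD as bars and axes from 0. DUSP5 lies at 36.2% to 39.3% in Control and at 25.6% to 26.3% in CELF6-OE.

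SPRY2, which is induced by growth factors and restrains receptor signalling to RAS and RAF, had the largest fitted increase of the 10 genes without passing the test. Its replicates held 329, 368 and 247 counts under CELF6-OE, against 246, 257 and 257 for Control. The FPKM was 2.98, 3.27 and 2.30 in CELF6-OE and 2.14, 2.15 and 2.14 in Control. On this scale the groups did not overlap and the spread lay within CELF6-OE. Before scaling, the counts overlapped by CELF6-OE replicate 3. Its CPM, 7.23, was just above the highest of Control, 7.05. The log2 fold change was 0.38 (standard error 0.13, 95% interval 0.094 to 0.67) and edgeR gave an adjusted p of 0.067. CELF6-OE replicate 3, the lowest of its group for SPRY2, was also the lowest for CELF6 itself, with an FPKM of 172, and whether the 2 are linked was not tested. Without that library the log2 fold change was 0.51 and the adjusted p was 0.019, and without CELF6-OE replicate 2 they were 0.28 and 0.27. The gene (ENSG00000136158) lies on the minus strand of chromosome 13 from 80335976 to 80341126.

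SPRED1, a membrane-bound relative of Sprouty that brings the RAS inactivator NF1 to RAS, had 472, 451 and 412 counts across CELF6-OE replicates, against 453, 359 and 301 across those of Control. Control replicate 1 lay within the range of CELF6-OE and the other 2 Control libraries lay below it. The FPKM was 1.58 ± 0.086 in CELF6-OE and 1.23 ± 0.28 in Control (SD, n = 3 each). Its log2 fold change was 0.34 (standard error 0.13, 95% interval 0.041 to 0.63) and edgeR gave an adjusted p of 0.11. Without Control replicate 1 it was 0.49 with an adjusted p of 0.0039, and without Control replicate 3 it was 0.21 with an adjusted p of 0.21. SPRED1 (ENSG00000166068) lies on the plus strand of chromosome 15 from 38252836 to 38357249.

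SPRY4, the other Sprouty gene measured here, had 352, 288 and 317 counts across CELF6-OE replicates, against 338, 314 and 360 across those of Control, with overlapping groups. Its FPKM was 1.77 ± 0.20 and 1.74 ± 0.12 (SD, n = 3 each) and its log2 fold change was -0.0058 (standard error 0.12, 95% interval -0.26 to 0.25, edgeR adjusted p 0.98). The sign of this change depended on the scaling and on which libraries were kept. SPRY4 (ENSG00000187678), on the minus strand of chromosome 5 from 142310427 to 142326455, overlaps SPRY4-AS1 on the opposite strand, which had a mean of 15.7 counts. The SPRY2 counts came to 93.5%, 128% and 77.9% of those of SPRY4 under CELF6-OE and to 72.8%, 81.8% and 71.4% for Control, and the groups overlapped in this ratio.

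EGR1, a zinc finger factor that serum and growth factors induce within minutes through serum response factor, was the least abundant of the 10 genes. It had 75, 100 and 92 counts across CELF6-OE replicates, against 127, 117 and 103 across those of Control. On the CPM scale the groups lay just apart, at 2.15 to 2.76 and 2.83 to 3.43, whereas the FPKM values overlapped, at 0.66 to 0.86 under CELF6-OE against 0.83 to 1.07 for Control. The log2 fold change was -0.30 (standard error 0.16, 95% interval -0.65 to 0.039) and edgeR gave an adjusted p of 0.20. The interval reached from 0.638-fold to 1.03-fold. Over the 6 libraries the log2 CPM of EGR1 was most like that of LAMB1, ATP2A2 and FAM111A, with Pearson's r of 0.990, 0.986 and 0.982 over the same 7610 genes, given as a description with the same limit as for DUSP6.

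The EGR1 gene (ENSG00000120738) lies on the plus strand of chromosome 5 from 138465479 to 138469303. Serum response factor binds the CArG box, and the RefSeq promoter window of EGR1, from 250 bases before to 50 after the start, held 2 of them. They are shown in capitals because CArG boxes are known elements through which growth factor signals reach this gene. Sequence further upstream was not searched, and distal and proximal order these 2 boxes only. They begin 105 and 83 bases before the start, at chr5:138465367-138465390 and chr5:138465389-138465412 of GRCh38.p14, plus strand.
EGR1 CArG box, distal: ggtcctgCCATATTAGGgcttcct
EGR1 CArG box, proximal: ctgcttcCCATATATGGccatgta
A CArG box was found in 1.29% of 35116 promoter windows of the same length.

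Promoter windows were listed for 7 of the 10 genes, and those of DUSP4, DUSP5 and ETV5 were not used here. The 7 genes had 10 windows, since SPRY2 and DUSP10 had more than 1 each. EGR1 was the only one of the 7 with a CArG box and DUSP1 the only one with a cyclic AMP response element, which 1.85% of all windows held. The letters GCGNGGGCG, bound by EGR-type zinc fingers, were found in 1 window each of SPRY2, SPRY4 and EGR1 and in 9.43% of all windows. The other windows of SPRY2 did not hold them. The AP-1 letters TGANTCA and the ETS letters CCGGAAG were found in 7.71% and 10.3% of all windows and in none of those of the 7 genes. Both strands were searched. A match is a string of letters and no evidence of binding.

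ETV5, an ETS factor induced by ERK and FGF signalling, had 1230, 1289 and 1189 counts across CELF6-OE replicates, against 1291, 1272 and 1218 across those of Control. The FPKM was 7.88 ± 0.13 in CELF6-OE and 7.48 ± 0.37 in Control (SD, n = 3 each), and the groups overlapped. Its log2 fold change was 0.045 (standard error 0.065) and edgeR gave an adjusted p of 0.67. The 95% interval, -0.098 to 0.19, leaves out changes beyond 0.934-fold and 1.14-fold. ETV5 (ENSG00000244405) lies on the minus strand of chromosome 3 from 186046314 to 186110318 and overlaps ETV5-AS1 on the opposite strand, which was not analysed here, and DGKG on the same strand, which had a mean of 590.7 counts, so reads of ETV5 may be divided with DGKG.

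**Figure D4:**
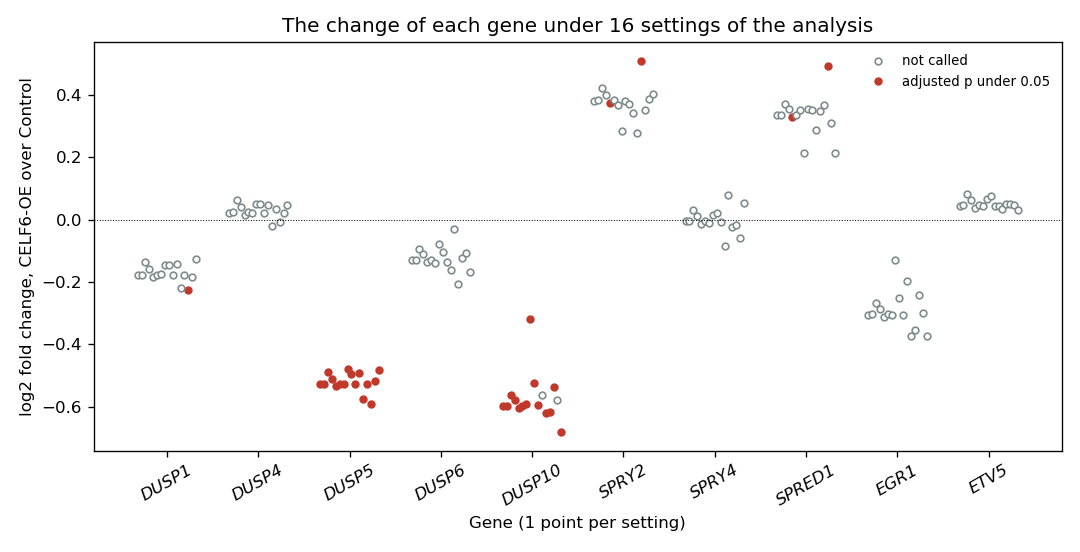
Log2 fold change of each gene under the 16 settings of the analysis (1 point each, changes from FPKM being on a log2 scale with a pseudocount), filled red where the adjusted p was under 0.05. DUSP5 is red in all 16, DUSP10 in all but 2, and SPRY4 is scattered around 0.

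In the annotated 3′ untranslated regions, where RNA-binding proteins act on stability, ATTTA, the core of AU-rich elements, was found in 9 of the 10 genes and in 68.3% of 18780 transcripts. DUSP5 had 0 copies in 1107 bases and DUSP10 had 3 in 988 bases, whereas SPRED1 had 24 in 5585 bases and DUSP1 had 4 in 666 bases. The letters TGTTTGT were found in 6 of the 10 genes, DUSP4, DUSP6, SPRY2, SPRY4, SPRED1 and ETV5, and in 25.2% of all transcripts. The other 4, DUSP1, DUSP5, DUSP10 and EGR1, had 0 copies each. The longer GU-rich element, these letters directly followed by TTGT, was found in 0 of the 10 genes and in 1.96% of all transcripts. CELF proteins are known to bind strings rich in G and U. These regions differ in length, with a median of 1088.5 bases over all transcripts. The 4 genes without TGTTTGT had 666 to 1222 bases. Of the 6 with it, SPRY2 had 782 bases and the others had 2019 to 5585. The shares of genes with a match are therefore not compared at like length, and whether the 10 genes differ from all transcripts was not tested. The counts describe letters only.

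The genes around this feedback were read from 5 lists of 100 genes, of which 91 were tested. Of these 91, 13 were higher and 11 were lower in CELF6-OE at an adjusted p under 0.05 (26.4% called, against 18% of all genes), with a median log2 fold change of 0.019. Over all genes tested, 6.47% were higher and 11.5% were lower, which is the background for the counts of each list below. The lists are described by counts and medians, and no list was tested as a set.

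Among 17 other feedback regulators, 15 were tested, 2 were higher and 3 were lower, with a median of 0.035. DUSP16, a phosphatase of JNK and p38 like DUSP10, had 1933, 1939 and 2186 counts across CELF6-OE replicates, against 3560, 3499 and 3103 across those of Control, and the log2 change was -0.67 (standard error 0.081). ERRFI1, an inhibitor that binds the EGF receptor kinase, fell by 0.64 on the log2 scale, from an FPKM of 32.9 ± 2.84 to 21.5 ± 2.03 (SD, n = 3 each). LRIG1, which directs receptors of the EGF family to degradation, fell by 0.76. PEA15, which holds ERK in the cytoplasm, rose by 0.39, from an FPKM of 37.6 ± 1.12 to 50.4 ± 3.17 (SD, n = 3 each). For these 4 genes edgeR gave adjusted p values from 0.00025 to 0.0060.

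Among 22 ligands and receptors, 19 were tested, 2 were higher and 5 were lower, with a median of 0.027. The EGF receptor ligands AREG and BTC fell by 0.41 and 1.07 on the log2 scale. AREG had 2737, 3005 and 2899 counts across CELF6-OE replicates, against 4070, 4042 and 3986 across those of Control, while BTC was scarce, at 80, 87 and 99 against 221, 188 and 178 counts. ERBB2 fell by 0.34 and the ERBB ligand NRG1 rose by 0.33. ERBB2 was not called without CELF6-OE replicate 1 or CELF6-OE replicate 2 (edgeR adjusted p of 0.059 and 0.055), nor NRG1 without CELF6-OE replicate 2 or Control replicate 2 (0.057 in each).

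Among 23 genes of the RAS-ERK cascade, 22 were tested, 5 were higher and 0 were lower, with a median of 0.015. PTPN11, the SHP2 phosphatase that couples receptors to RAS, rose by 0.43 on the log2 scale, and it was not called without CELF6-OE replicate 2 (edgeR adjusted p of 0.0503). HRAS rose by 0.28 and missed the threshold in 4 of 15 alternatives. KSR2, a scaffold of the cascade, had 54, 33 and 37 counts across CELF6-OE replicates, against 24, 21 and 21 across those of Control, and its log2 fold change was 0.98. KSR2 was not called in 4 of 15 alternatives, with an edgeR adjusted p of 0.12 without CELF6-OE replicate 1 and 0.098 without Control replicate 2, and with limma changes of 0.041 and 0.29 on FPKM with pseudocounts of 1 and 0.1.

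Among 16 genes of the p38 and JNK pathways, all tested, 1 was higher and 1 was lower, with a median of 0.039. MAP2K6, a kinase that activates p38, fell by 0.70 on the log2 scale, from an FPKM of 6.12 ± 0.53 to 3.84 ± 0.52 (SD, n = 3 each). MAPK9, which encodes JNK2, rose by 0.41, from 4.03 ± 0.43 to 5.46 ± 0.19 (SD, n = 3 each).

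Among 22 genes that are targets of ERK and serum response factor, or serum response factor itself and its ETS partners, 19 were tested, 3 were higher and 2 were lower, with a median of 0.016. The 3 higher were FOSL1 and the partners ELK3 and ELK4. The immediate early gene FOS had 189, 136 and 218 counts across CELF6-OE replicates, against 391, 305 and 288 across those of Control, and the log2 change was -0.78 (standard error 0.18). ZFP36, which encodes the mRNA decay factor tristetraprolin, fell by 0.67. FOSL1, a later AP-1 member that depends on ERK in many carcinoma lines, had 4707, 5835 and 4022 counts across CELF6-OE replicates, against 3065, 3243 and 4042 across those of Control. The groups of FOSL1 counts overlapped by CELF6-OE replicate 3 and Control replicate 3 before scaling, but not after it, and the log2 fold change was 0.56 (standard error 0.12). ELK3 rose by 0.57 on the log2 scale. FOSL1 was not called without CELF6-OE replicate 2 or Control replicate 2, with an edgeR adjusted p of 0.061 and 0.057.

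**Figure D5:**
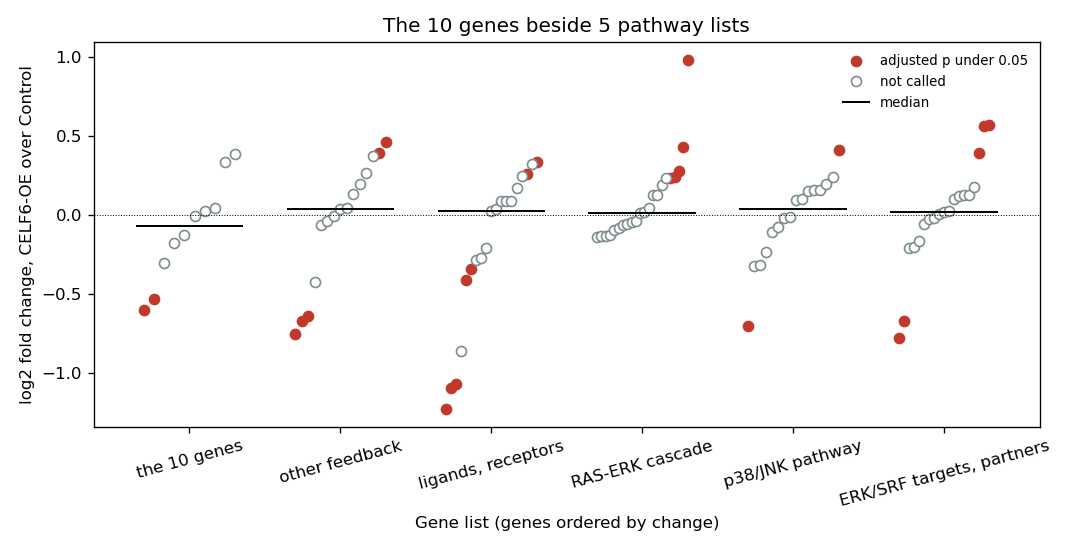
Log2 fold change of CELF6-OE over Control for the 10 genes and for the tested genes of 5 pathway lists, ordered by change within a list, filled red where the adjusted p was under 0.05, with the median as a line. The list medians lie between 0.015 and 0.039, and that of the 10 genes at -0.068.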

How the data were processed

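After trimming (FASTX-Toolkit) and alignment to GRCh38 (TopHat2), the authors deposited whole-number read counts per gene without normalization, from uniquely located reads, together with FPKM values, which the authors computed from the same reads and rounded. The directional kit is stated, whereas neither the counting tool and its use of strand nor the annotation release is given in the sources used here. DUSP1, DUSP6, SPRY4 and ETV5 overlap annotated genes on the opposite strand, and ETV5 also overlaps genes on its own strand.

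The counts were filtered with filterByExpr (minimum count 10), scaled by TMM (edgeR 4.0.16, R 4.3.3) and tested with edgeR's quasi-likelihood test over 15847 genes with Benjamini-Hochberg adjustment. A gene was called at an adjusted p under 0.05, and a p under 0.01 with a fold change of at least 1.5 gave a second count. The study's text states this rule in one place and an adjusted p under 0.05 with the same fold in another, so both were counted. The prior count was 0.125, and standard errors and 95% intervals came from the fit, with 7.15 prior degrees of freedom. The filter was used because the fit of all 29889 genes ignores the spread of single genes. Exact permutation of 3 libraries against 3 cannot give a p below 0.1. Coordinates are from GENCODE v44, promoters from RefSeq (GRCh38.p14). DESeq2 1.42.0 and limma 3.58.1 were alternatives. The procedure was tested on simulated data.

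The 10 genes, the lists and the tests were chosen with earlier results of these data known. Named were all 10 genes, up to 4 called genes of each list with the smallest p, and the 3 genes most like DUSP6 and EGR1. Some items that this rule would name are not reported here. Within-group chi-square per degree of freedom was 7.69 to 29.3, so no library was a duplicate. The 29.3 was between Control replicates 1 and 3, the pair least alike, and the next highest was 11.8. FPKM levels give no depth of their own.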

Additional observations from a re-analysis of the deposited data

How the results depend on the processing

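Over 15 alternatives for each of the 10 genes, 135 of 150 results kept their direction and side of the threshold, 2 lost a call (DUSP10), 5 gained one (SPRY2 and SPRED1 in 2 each, DUSP1 in 1) and 8 changed sign (SPRY4 and DUSP4). With no filter on low counts, 2 of the 10 genes were called higher, SPRY2 (adjusted p 0.032) and SPRED1 (0.040), where the fit ignores the spread of single genes. The count past a fold change of 1.5 went from 1 to 0 with the library size only, with the upper quartile, with log2(FPKM + 1) and with log2(FPKM + 0.1). DUSP10 lay just past that fold change in the main fit, at a log2 fold change of -0.60. In these settings, in that order, its log2 fold change was -0.56, -0.58, -0.32 and -0.52. The pseudocount of 1 is close to the mean FPKM of DUSP10 itself, 1.06 in CELF6-OE and 1.58 in Control. The log2 fold change of SPRY4 turned to 0.032 with the library size only, 0.012 with the upper quartile, 0.014 and 0.020 with pseudocounts of 1 and 0.1 on FPKM, 0.081 without CELF6-OE replicate 2 and 0.053 without Control replicate 3, with a range of -0.085 to 0.081 when 1 library was left out. That of DUSP4 turned to -0.020 without CELF6-OE replicate 2 and -0.0074 without Control replicate 1, in a range of -0.020 to 0.047. The cause was not tested.

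Leaving out each library in turn gave 0 to 1 of the 10 genes called higher, 1 to 3 called lower, and 0 to 1 lower past the fold change of 1.5 (DUSP5 in place of DUSP10 without Control replicate 1). It gave 4 to 19 pathway genes called higher and 8 to 17 lower. Over all genes it gave 1319 to 4276 calls, 281 to 1906 higher and 1032 to 2370 lower, with the highest total without Control replicate 1 and the lowest without Control replicate 2. Same-numbered libraries did not deviate together (correlations of -0.12, -0.088 and -0.14 over 11441 genes), so the numbers were not read as pairs. With the replicate number as a block, 2 of the 10 genes were lower and 0 higher, and 2290 genes were called against 2845. Across the pathway genes that the naming rule picked, 247 of 270 results kept their direction and side of the threshold, 23 lost the call and 0 changed sign. EGR1 and DUSP10, at 75 to 180 counts per library, had the widest intervals of the 10 genes.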
